A study of Drosophila melanogaster with 4 samples.

Results

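Narrow regions enriched for HP2 were examined along the body of chromosome arm 3R of Drosophila melanogaster. They were chosen from the list deposited for the replicate set, here the combined list. How the replicates were joined in it is not stated. The regions are narrower than 4000 bp, with positions on FlyBase release 5. Their midpoints lie more than 3 Mb from the centromere-proximal end of the 3R sequence and more than 1 Mb from its distal end. Midpoints from 12450001 to 12850000 were left out. The rule found 1751 regions, which is 13.8% of the 12660 regions of the combined list and 92.9% of the 1884 regions of any width in the same 23.5 Mb. Width, position and membership in the combined list chose the regions and are given below as a description, with no test.

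HP2 is the product of Su(var)2-HP2, a gene whose mutations suppress position-effect variegation, the silencing of genes placed next to heterochromatin. The protein binds HP1a, which in turn recognises histone H3 methylated at lysine 9, and both proteins are best known from pericentric heterochromatin and chromosome 4. The body of a chromosome arm is mostly euchromatin, where HP1a partners are found at scattered sites.

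The material was nuclei of wild-type Oregon-R larvae at the third instar, with no transgene, mutation or treatment named for any group. There were 2 ChIP libraries made with the HP2 antibody Ab2-90 and 2 input libraries, numbered as replicates 1 and 2, and per the labels each input served the ChIP library of its own number. The labels do not say whether the replicates came from separate collections, and differences between them may be technical only. Chromatin of many cells was pooled, so a site bound in few cells and a site bound weakly in many cannot be told apart. Each list gives a position and a score per region but no reads, and sequencing depth is therefore unknown. No source used here gives the scale of the score, a number of the authors' own, and it is compared within a list only.

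Most narrow 3R regions rested on the combined list alone. A region of the replicate 1 list overlapped 374 of the 1751, or 21.4% (exact 95% binomial interval 19.5 to 23.4%), by 1 bp or more. The background was 26.2% over all regions of the combined list and 18.4% over its 11053 regions under 4000 bp. That set is matched by the width limit only and includes these members. For replicate 2 the count was 657, or 37.5% (35.2 to 39.8%), against 52.2% of all regions and 45.4% of those under 4000 bp. The mean of the replicates was 29.4% ± 11.4 (SD, n = 2). Both replicates overlapped 276 regions, or 15.8% (14.1 to 17.6%), against 22.3% of all regions and 14.1% of those under 4000 bp. Neither overlapped 996, or 56.9% (54.5 to 59.2%), against 43.9% and 50.3%. Beside all regions under 4000 bp, the 3R shares were thus higher for replicate 1 and for neither, lower for replicate 2, and for both replicates at the edge of the interval. For each replicate, narrow regions in the bodies of 2L and 3L lay on the same side as 3R. Their shares were 21.2% and 22.5% for replicate 1, and 40.3% and 40.4% for replicate 2. On X the shares, 15.4% and 45.9%, lay on the other side. The share in neither was 53.4% on 2L, 53.0% on 3L and 51.0% on X, and so was highest on 3R. The remaining 3R regions were overlapped in replicate 1 only (98, or 5.60%) or in replicate 2 only (381, or 21.8%). All of these lists come from the same libraries, so the overlap is not independent evidence and no test was run on it. Intervals cover counting error only, and neighbouring regions are not independent.

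The wider regions of the same stretch behaved otherwise in these counts. Of the 133 regions of 4000 bp or more, 111, or 83.5% (76.0 to 89.3%), were overlapped in both replicates and 1 in neither. Over the whole combined list the share in both was likewise higher with wider regions included, at 22.3%, than under 4000 bp, at 14.1%. This contrast by width therefore cannot be called particular to 3R. The width limit itself falls where regions look alike on both sides. Just inside it were the regions at 20862704 to 20866698 (3995 bp, combined score 0.402) and 12256558 to 12260550 (3993 bp, 0.433). Just outside were those at 4643306 to 4647326 (4021 bp, 0.330) and 18950782 to 18954814 (4033 bp, 0.781). Each of these 4 regions was overlapped in both replicates.

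Read from the side of the replicates, nearly every HP2 region of the 3R body was recovered in the combined list. Replicate 1 had 523 regions in the same stretch, of which 377 (72.1%) touched a narrow region, 137 (26.2%) touched wider regions only, and 9 touched nothing in the combined list. Replicate 2 had 822, of which 657 (79.9%) touched a narrow region, 158 (19.2%) wider ones only, and 7 nothing. The correspondence was close to region by region. Counting only the highest-scoring replicate region of each member, the 374 members overlapped in replicate 1 fell on 373 distinct regions. The 657 overlapped in replicate 2 fell on 651. In replicate 1, 4 members overlapped 2 regions, and in replicate 2 it was 6. Most of a member's width was covered. In the regions overlapped in both, replicate 1 covered a median of 76.9% of the width and replicate 2 a median of 88.6%, and the centres were a median of 179 bp and 89.3 bp apart.

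Width separated the regions with replicate overlap from those without it. Regions overlapped in neither replicate had a median width of 1231 bp (95% interval of the median 1209 to 1255), and those overlapped in both of 2668 bp (2591 to 2817). Regions overlapped in replicate 1 only or replicate 2 only lay between, at 1855 bp and 1895 bp. The share overlapped in both was higher at each wider step. It was 0.117% of the 854 regions from 1000 to 1499 bp, 5.35% of 411 from 1500 to 1999 bp, and 42.9% of 189 from 2000 to 2499 bp. It was 48.3% of 145 from 2500 to 2999 bp, 62.4% of 93 from 3000 to 3499 bp and 74.6% of 59 from 3500 to 3999 bp.

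The lists also differed in their narrowest regions. The narrowest region anywhere in the combined list was 1001 bp, and the narrowest in either replicate list was 1301 bp. Of the narrow 3R regions, 630, or 36.0%, were under 1301 bp, widths at which the replicate lists hold no region. Among these 630, 91.1% (88.6 to 93.2%) were overlapped in neither replicate. Among the 1121 regions of 1301 bp or more, 37.6% (34.8 to 40.6%) were overlapped in neither and 24.5% (22.0 to 27.2%) in both. The only narrow 3R region under 1301 bp overlapped in both, at 16435608 to 16436906, shared a single base with its replicate 2 region.

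**Figure D1:**
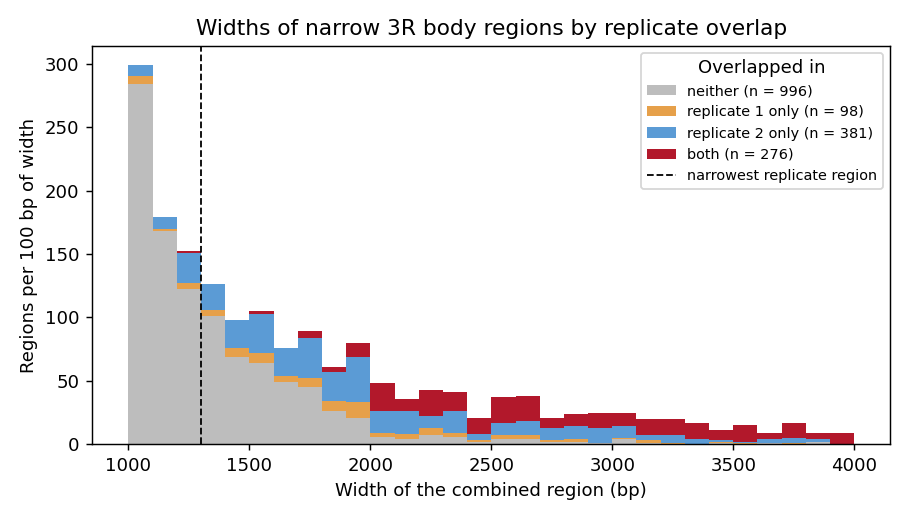
Stacked counts of the 1751 narrow 3R regions in steps of 100 bp of width (x axis, bp), coloured by overlap with the replicate lists; the dashed line marks 1301 bp, the narrowest replicate region. Regions overlapped in neither replicate, 996 in all, fill the narrow end, and those overlapped in both, 276 in all, lie mostly above 2000 bp.

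The combined scores of most narrow regions were low and alike. Their median was 0.350 (95% interval of the median 0.346 to 0.354), with quartiles of 0.309 and 0.394, against a median of 0.392 over the whole combined list and 0.376 over its regions under 4000 bp. Regions overlapped in both replicates stood higher, at a median of 0.492 (0.468 to 0.531), against 0.340 (0.336 to 0.344) for neither, a difference of 0.153. Regions overlapped in 1 replicate lay close to those in neither, with medians of 0.333 (0.323 to 0.349) for replicate 1 only and 0.345 (0.338 to 0.352) for replicate 2 only. When a single replicate decided, the difference between overlapped and other regions was 0.0743 for replicate 1 and 0.0355 for replicate 2.

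High scores were concentrated in a small set of regions. Among the 175 highest-scoring members, with scores of 0.483 or more, 147, or 84.0% (77.7 to 89.1%), were overlapped in both replicates. In the other 9 groups of 175 or 176 members ranked by score, that share ran from 1.14% to 24%. It was 15.8% over all members and 22.3% over all regions of the combined list, and was not computed for other regions of like score. The combined score and the replicate lists come from the same libraries, so the overlap of high-scoring regions is not independent evidence. A score above 1 was found in 32 regions, 27 of them overlapped in both replicates and 5 in neither. No region overlapped in a single replicate scored above 0.545.

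Score and width divided the overlapped regions at about 2000 bp, a limit chosen after the values were seen. Of the regions overlapped in any replicate, 134 scored above 0.5, and every one of these was 2000 bp wide or more. The highest score among the 316 overlapped regions under 2000 bp was 0.465. Among regions overlapped in neither replicate, 18 of the 949 under 2000 bp scored above 0.5, and 0 of the 47 of 2000 bp or more. With so small a share, 47 regions are too few to show a difference. The medians of these width groups were alike, at 0.340 and 0.338.

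Within narrow ranges of width the sign of the score difference changed. From 1500 to 1999 bp, the 22 regions overlapped in both replicates had a median of 0.281 and the 205 in neither of 0.320, so that the former were lower by 0.0390. From 2000 to 2499 bp the medians were 0.432 (81 regions) and 0.342 (25 regions), and from 2500 to 2999 bp they were 0.558 (70) and 0.323 (13). The regions in both stood higher by 0.208 from 3000 to 3499 bp and by 0.188 from 3500 to 3999 bp, against 6 and 3 regions in neither. The overall difference of 0.153 thus compares groups of unlike width. Regions in both stood higher only in the ranges of 2000 bp or more, and under 2000 bp they numbered only 23. Within the regions overlapped in both, score and width went together with a Spearman's rho of 0.39 over 276 regions. Within those in neither the rho was -0.35 over 996. These correlations describe regions of the same libraries and carry no p.

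**Figure D2:**
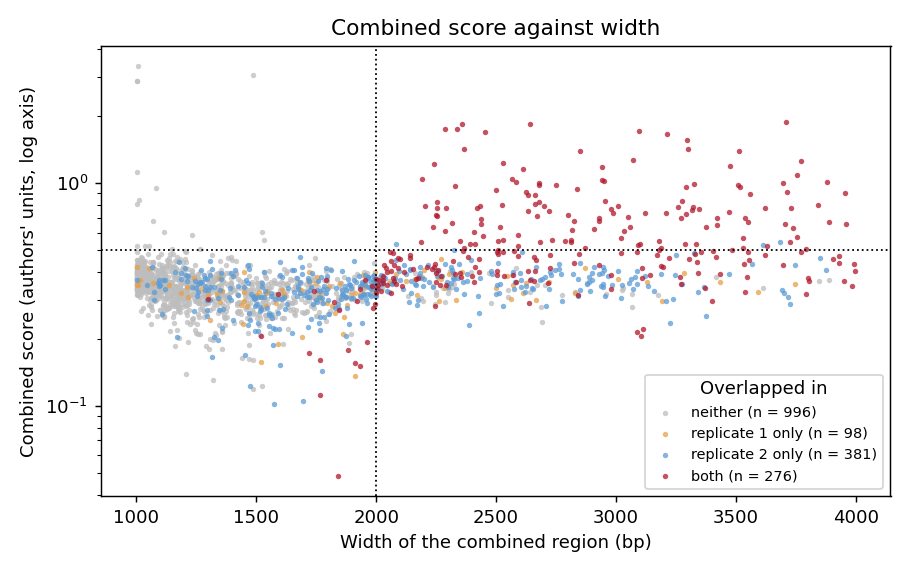
Combined score (y axis, log scale, authors' units) against width in bp for the 1751 narrow 3R regions, coloured by overlap with the replicate lists; dotted lines mark 2000 bp and a score of 0.5. The upper right field holds regions overlapped in both or in replicate 2 and the upper left field holds only regions overlapped in neither.

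The 10 highest-scoring regions among those overlapped in both replicates were 2.29 to 3.71 kb wide. Among the narrow 3R regions they also ranked high by each replicate score, which comes from the same libraries as the combined score. Their ranks among members ran from 1 to 12 by replicate 1 score and from 1 to 15 by replicate 2 score. The leading region lay at 3R 3010192 to 3013900, close to the inner edge of the body, with a combined score of 1.89, a replicate 1 score of 1.51 and a replicate 2 score of 2.40. The region at 24459420 to 24462062 followed with 1.84, 1.70 and 2.01, and the region at 22013348 to 22015706 with 1.84, 1.56 and 2.08. At these 3 regions the score was higher in replicate 2 than in replicate 1, but the scores of separate lists are not on a stated common scale.

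Several of the next regions were sharply placed, in the sense that both replicates drew nearly the same borders. At 22706132 to 22708470 (2339 bp, combined score 1.75) replicate 1 covered 97.9% of the width and replicate 2 98.7%. At 16077328 to 16079612 (2285 bp, 1.74) these shares were 96.8% and 99.9%. At 7588924 to 7591378 (2455 bp, 1.69) they were 95.03% and 98.9%. The leading region itself was less sharp, with 68.6% of its 3709 bp covered in replicate 1 and 91.7% in replicate 2.

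The other regions of the 10 were at 11066858 to 11069952 (combined score 1.71), 24669058 to 24672268 (1.67), 22975190 to 22978484 (1.56) and 21705984 to 21709282 (1.43). By position, 4 of the 10 lay between 19000001 and 23000000, a stretch that held 62 of the 276 regions overlapped in both, and 2 lay beyond it. Each of the 4 Mb stretches before it held 1. This order depends on the cut at 10. Among regions in both with a score above 1, the stretch from 7000001 to 11000000 held the most, 8, against 6 from 19000001 to 23000000. The region with the third-highest replicate 1 score, 1.54, lay at 12183880 to 12187392 and had a combined score of 1.399 and a replicate 2 score of 1.79. It had 63.8% of its width covered in replicate 1 and 62.4% in replicate 2, so both replicates placed HP2 in the same part of it.

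A shared border can lend a region the score of its neighbour. The region at 11069952 to 11072280, with a combined score of 0.392 and a replicate 1 score of 0.445, touches the one at 11066858 to 11069952. It was assigned that neighbour's replicate 2 score of 2.06, because the same replicate 2 region reaches past their border and the highest overlapping score is taken, and it is the point at the upper left of the plot of replicate scores. In replicate 2, 12 members shared their assigned region with another member, and in replicate 1 there were 2.

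**Figure D3:**
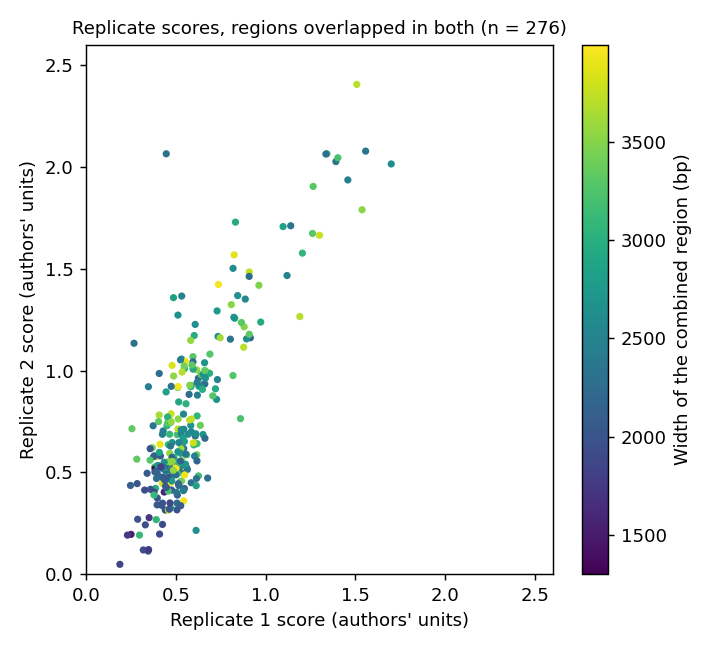
Replicate 2 score against replicate 1 score (authors' units) for the 276 narrow 3R regions overlapped in both replicates, coloured by width in bp. The points rise together, with a Spearman's rho of 0.68, and the 10 leading regions form the sparse group at the upper right.

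The replicates ranked the shared regions alike. Over the 276 regions overlapped in both, Spearman's rho between replicate 1 and replicate 2 scores was 0.68. It was 0.62 over the 23 regions under 2000 bp, 0.59 over the 151 from 2000 to 2999 bp and 0.71 over the 102 from 3000 to 3999 bp. The combined score followed replicate 2 more closely, with a rho of 0.93, than replicate 1, with 0.77. Regions in both also scored higher within each replicate list, at medians of 0.517 against 0.461 for replicate 1 only, and 0.632 against 0.482 for replicate 2 only.

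The lowest scores were also found in both replicates. The lowest combined score of all 1751, 0.0486, belonged to the region at 19684404 to 19686244, which replicate 1 covered to 96.4% with a score of 0.187 and replicate 2 to 90.0% with a score of 0.0486. These were the lowest scores of any member in either replicate. Among the regions overlapped in both, the next lowest combined score was at 20104492 to 20106258, with 0.112 combined, 0.229 in replicate 1 and 0.192 in replicate 2, and the one after it, at 17009690 to 17011622, had 0.150, 0.329 and 0.242 in the same order. These 3 were named after their values were seen. Of the 88 members below the 5th percentile of score (0.237), 12, or 13.6% (7.25 to 22.6%), were overlapped in both replicates, close to the 15.8% of all members. Above the 95th percentile (0.695) it was 80 of 88, or 90.9% (82.9 to 96.0%). The lowest-scoring members were therefore not confined to those absent from the replicate lists.

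The highest combined scores, in turn, belonged to regions that no replicate list held. The top was 3.34 at 8297040 to 8298046, a region of 1007 bp, followed by 3.05 at 26505328 to 26506812, of 1485 bp, and 2.88 at 24618656 to 24619656, of 1001 bp. The next, at 26144164 to 26145164 and also 1001 bp wide, had the same score of 2.88 and was named after its value was seen. Each of these scores recurred exactly elsewhere in the combined list. The score of 3.34 was shared with 10 other regions, all on heterochromatin scaffolds or unplaced sequence outside the assembled arms. The score of 3.05 was shared with 15 others, 12 of them on such sequence, and 2.88 with 16 others, 12 of them likewise.

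Repeated scores were common beyond these. Of the 1751 regions, 687, or 39.2%, had a score found at another region of the combined list, against 37.0% over the whole list. The share was 53.1% among regions overlapped in neither replicate, 25.5% and 29.1% among those in replicate 1 only and replicate 2 only, and 7.97% among those in both. What produces a repeated score was not tested.

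Along the arm the narrow regions lay unevenly, and every window of 1 Mb held some. In windows of 1 Mb their density ran from 48.0 to 110.0 per Mb, with a median of 73.5. The window from 5000001 to 6000000 held the most, 110, of which 15 were overlapped in both replicates, 9 in replicate 1 only, 30 in replicate 2 only and 56 in neither. The window from 20000001 to 21000000 followed with 107. The window from 13000001 to 14000000 held the fewest, 48, of which 8 were overlapped in both.

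The replicate lists varied along the arm in a similar order. Replicate 1 ranged from 10.0 regions per Mb, in the sparsest window just named, to 38.3, and replicate 2 from 21.0 to 60.0. Over the 24 windows the densities of the replicate lists had a Spearman's rho of 0.83, and the density of members in both had a rho of 0.67 with that of members in neither. All windows come from the same libraries, and the values are descriptive. The median score of a window moved little, from 0.334 to 0.369.

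The regions overlapped in both were most frequent per Mb in the window from 12000001 to 13000000, with 13 on the 0.6 Mb that was kept, or 21.7 per Mb. They were fewest from 23000001 to 24000000, where 2 of 57 regions, or 3.51% (0.428 to 12.1%), were overlapped in both, while 19 were overlapped in replicate 2 only. The last stretch of the body, from 23000001 on, had 31 of 293, or 10.6% (7.30 to 14.7%), and the stretch from 19000001 to 23000000 had 62 of 321, or 19.3% (15.1 to 24.1%). The other 4 stretches of 4 Mb held 15.5% to 17.1%.

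**Figure D4:**
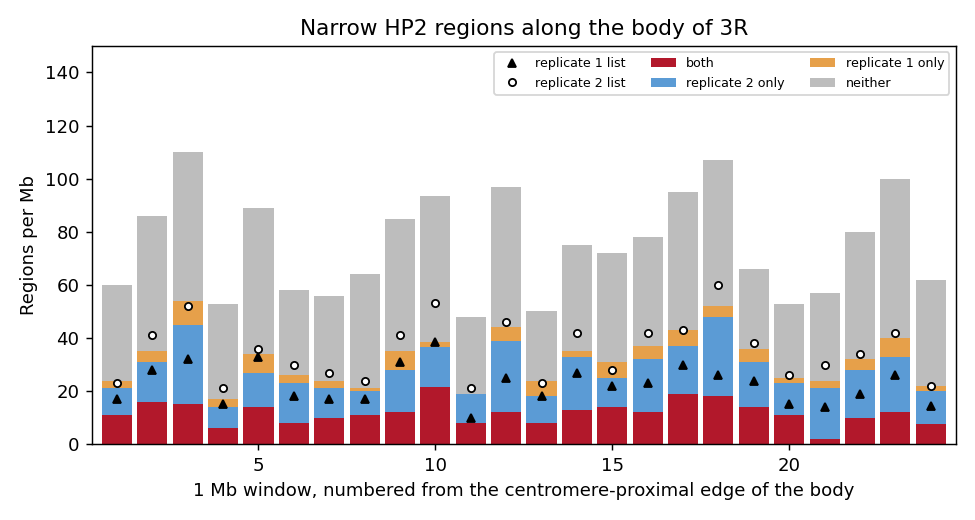
Narrow regions per Mb in 24 windows of 1 Mb, numbered from the centromere-proximal edge of the 3R body and coloured by overlap with the replicate lists, with the density of all replicate 1 regions (triangles) and replicate 2 regions (circles). Density peaks at 110 per Mb in window 3 and is lowest, at 48, in window 11; the red base shrinks to 2 in window 21.

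Neighbouring regions were often close together. The median distance from the end of a region to the start of the next was 4429 bp (95% interval of the median 4017 to 4901), with quartiles of 1207 and 12543 bp. The widest gap, 211857 bp, ran from 8573134 to 8784992. With gaps of up to 1000 bp joined, 673 regions, or 38.4%, belonged to runs of at least 2, and with gaps of up to 5000 bp it was 1308, or 74.7%.

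The longest runs mixed regions of all kinds. With gaps of up to 5000 bp, 17 regions lay from 3800172 to 3861212, a span of 61.0 kb. They had scores of 0.235 to 0.970 and widths of 1007 to 3547 bp, with 4 overlapped in both replicates and 8 in neither. With gaps of up to 1000 bp the longest runs had 6 regions, at 14044200 to 14057416 and at 14476844 to 14490122, 13.2 and 13.3 kb long, each with 3 regions in neither replicate. These runs were named after their values were seen. The median distance from a narrow region to the nearest 3R region of 4000 bp or more was 41845 bp, and 4.91% lay within 1000 bp of one. Such wide regions were sparse, with 133 in the 23.5 Mb of the body. The distances were not compared with those of other positions.

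Replicate regions were denser around the narrow regions than in the body at large. Between 3 and 10 kb from a member's centre, replicate 1 regions covered on average 7.87% of positions and replicate 2 regions 13.9%, where they covered 4.49% and 7.85% of the body as a whole. Around members overlapped in neither replicate these values were 7.28% and 12.8%, which is 1.62-fold and 1.64-fold the body mean. Around members in both they were 8.62% and 14.4%. The distance from regions in neither to the nearest replicate region varied widely. Its median was 4964 bp, with quartiles of 1598 and 13795 bp and a 95th percentile of 57426 bp, and 17.1% had one within 1000 bp.

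**Figure D5:**
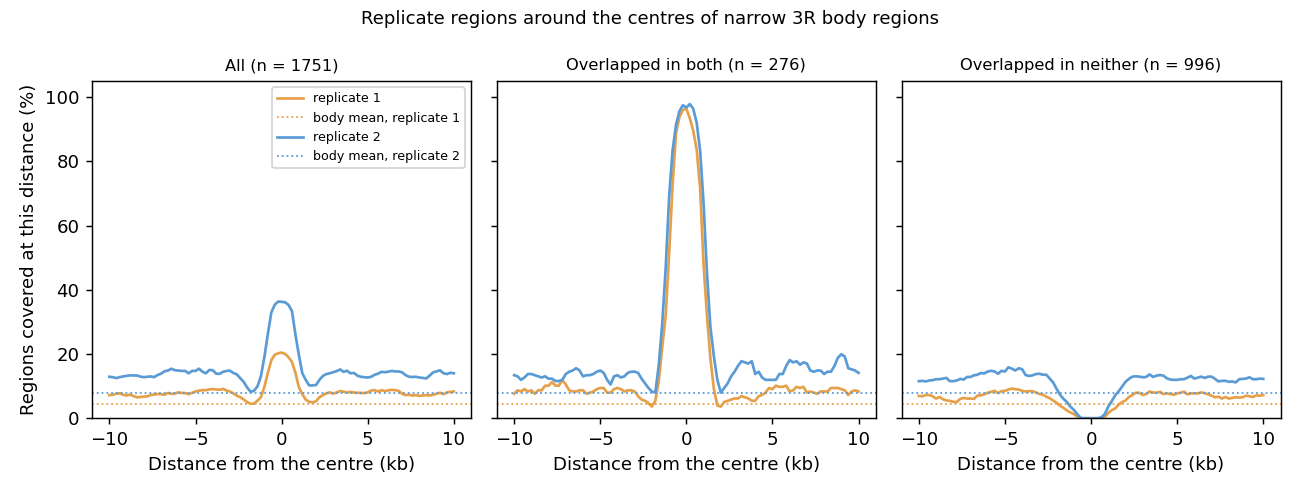
Percentage of narrow 3R regions whose position at a given distance from the centre (x axis, kb) is covered by a replicate 1 or replicate 2 region, for all 1751, for the 276 overlapped in both and for the 996 overlapped in neither; dotted lines give the mean cover of the body, 4.49% and 7.85%. The central rise and the central drop to 0 follow from how the 2 right-hand groups were formed, and the flanks beyond 3 kb lie above the dotted lines.

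Set beside the bodies of 2L, 3L and X, cut by the same distances from the ends and the same width, the 3R body lay among the other arms in density. No stretch inside those arms was left out. The 3R body held 74.5 narrow regions per Mb (exact Poisson interval 71.0 to 78.1), against 64.0 on 2L, 73.1 on 3L and 90.3 on X, which is 0.983 times the mean of those 3 arms. Median widths were 1519 bp on 3R and 1551, 1553 and 1564 bp on the others. Among regions in the higher-scoring 50% of the combined list, that ratio was 0.659. The cutoff there was the median score of the whole list, 0.392, and narrow regions had a median of 0.412 on X and 0.350 on 3R. Regions overlapped in both replicates numbered 11.7 per Mb on 3R, against 9.52 on 2L, 11.6 on 3L and 11.1 on X. With 2 libraries no test between arms was run.

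The share overlapped in neither replicate was 56.9% on 3R (54.5 to 59.2%), 53.4% (50.6 to 56.2%) on 2L, 53.0% (50.5 to 55.6%) on 3L and 51.0% (48.6 to 53.5%) on X. The shares in both were 15.8%, 14.9%, 15.9% and 12.3% in the same order. The X differed in the balance of the replicates, with 933 regions of any width in replicate 2 and 402 in replicate 1, or 2.32 times as many, where 3R had 1.57 times as many. Median combined scores were 0.350 on 3R, 0.348 on 2L, 0.346 on 3L and 0.412 on X. Regions overlapped in both had a median of 0.492 on 3R (0.468 to 0.531), between the 0.455 of 3L and the 0.581 of X, and 27 of 276, or 9.78%, scored above 1 on 3R against 32 of 204, or 15.7%, on X. Replicate scores of regions in both had a rho of 0.68 on 3R and of 0.63, 0.64 and 0.61 on 2L, 3L and X.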

How the data were processed

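The submitters' processing notes name Bowtie 0.12.7. The authors deposited 3 lists of significantly enriched regions, each with a score per region, for ChIP replicate 1, ChIP replicate 2 and the replicate set. No source used here names the caller, its threshold, the scale of the score or how replicates were joined. Positions are 1-based and, per the file headers, belong to FlyBase release 5. The gene table used here is on release 6, so regions are given by position only and no gene or sequence is assigned.

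Overlap means at least 1 shared bp. Where several replicate regions overlapped a member, the highest score was taken. Intervals are exact binomial (Clopper-Pearson) at 95%, and for medians from order statistics. No read counts are held in the lists, so the precision set by depth is unknown. The bodies of 2L, 3L and X leave out the proximal 3 Mb and terminal 1 Mb. Python 3.11.15, pandas 2.3.3 and scipy 1.17.1 were used, and the overlap counts were tested on simulated data.

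The regions and all rules were chosen with earlier results of these data known. Regions named are the 10 highest by combined score in both replicates, the highest in each 4 Mb stretch, the 3 highest in neither, the 3 highest by each replicate score, and 2 on each side of the width limit. Any other region named was chosen after its values were seen. Alternatives were other width limits, bounds, overlap rules, merging within 1 kb, the higher-scoring 50% and leaving out a replicate. Added after seeing the data were members of at least 1301 bp.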

Additional observations from a re-analysis of the deposited data

How the results depend on the processing

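No paired analysis was possible because no test between ChIP and input could be made from lists that hold ChIP regions only. With a width under 3000 bp, 10.9% of regions were overlapped in both replicates, the median width was 1453 bp, the median score 0.346, the score difference between regions in both and in neither 0.121, the rho of the replicate scores 0.655 and the median gap 5383 bp. Under 5000 bp the share in both was 18.3%, the rho 0.699 and the gap 3827 bp. The higher-scoring 50% of the combined list left 465 regions, with a mean of 52.3% overlapped per replicate, 43.4% in both, a median width of 2191 bp, a median score of 0.444, a rho of 0.630, a gap of 28143 bp and a density of 0.659 times that of 2L, 3L and X. Merging within 1 kb left 1129 regions, with 13.3% in both, a rho of 0.668 and a gap of 9859 bp. Limiting the members to 1301 bp or more, chosen after seeing the data, left 1121, with a mean of 43.4% overlapped, 24.5% in both, a median width of 1909 bp and a gap of 6779 bp. The rho was 0.706 where 50% of the member had to be covered, 0.714 with reciprocal overlap, 0.690 over pairs of 1 member and 1 region, and 0.686 with the longest shared stretch. Leaving out either replicate gave 21.4% to 37.5% overlapped and a score difference of 0.0355 to 0.0743. The score difference stayed above 0 in all of these. Narrowing the bounds by 1 Mb at each end left 1626 regions, with a mean of 29.7% overlapped and 15.9% in both. The gap was then 4428 bp, the rho 0.676 and the density 1.03 times the mean of 2L, 3L and X. Whether depth limits the calls is unknown, since the lists hold no reads.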
